A study of Mus musculus with 12 samples.

Results

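The nuclear genes for the subunits of oxidative phosphorylation were followed through 3 stages of mouse T cell development with normal or reduced Ikaros. The members were all gene symbols of the array that begin with Nduf and a, b, c, s or v with a number, with Uqcr, with Cox4 to Cox8 or with Atp5, together with Sdha, Sdhb, Sdhc and Sdhd. Pseudogenes were left out. This gave 81 of the 18194 genes on the array: 35 of complex I, 4 of complex II, 8 of complex III, 17 of complex IV and 17 of complex V. Where a gene had several probe sets, the brightest on average over the 12 arrays stood for it. Of the 81, 79 were bright enough to be tested. Cox7b2 lay between 3.13 and 3.56 on the log2 scale on all arrays, under the medians of 5.14 to 5.22, and was not tested. Ndufb4 was not tested either, since its only probe set with a single symbol lay between 3.74 and 4.30 on all arrays. Probe sets that name a member with another gene were left out.

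The cells were thymocytes sorted at the DN3, DN4 and DP stages from wild-type (WT) mice and from IkL/L mice, which are deficient in Ikaros per the series title. Ikaros is a DNA-binding zinc-finger protein, encoded by Ikzf1, that regulates transcription in lymphocytes, and the IkL allele is known as a hypomorphic allele with a lacZ reporter placed in Ikzf1. No treatment is named, and the age of the mice is not given in the sources used here. Each of the 6 groups (WT DN3, WT DN4, WT DP, IkL/L DN3, IkL/L DN4 and IkL/L DP) held 2 arrays, and each sort pooled the cells of 3 mice. The labels do not say whether the arrays of a group came from separate pools, so the p-values measure the spread between these arrays. In the WT groups this spread may be technical. Within each IkL/L group the 2 arrays differed in Y-linked signal, as given below, so their spread is not technical alone.

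DN3 and DN4 cells lack the co-receptors CD4 and CD8. DN4 cells have passed the checkpoint for a T cell receptor beta chain and divide fast, and DP cells carry both co-receptors and are mostly small and quiescent. Oxidative phosphorylation passes electrons from NADH (complex I) and succinate (complex II) through coenzyme Q to complex III, then through cytochrome c to complex IV and oxygen. The proton gradient that complexes I, III and IV build drives the ATP synthase, complex V. Nuclear genes encode most subunits of these enzymes and all of complex II, and the mitochondrial genome encodes the rest, which were not analysed here.

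Ikzf1 was lower in IkL/L cells at each stage, by 0.65, 0.63 and 0.70 on the log2 scale in DN3, DN4 and DP cells (limma, adjusted p = 0.00911, 0.0101 and 0.00454), and the position of its probes relative to the allele was not checked. Of 15 thymocyte markers on the array, 12 lay at or above the array median on all 12 arrays. Il2ra, the surface marker of DN3 cells, fell from a mean of 10.7 in WT DN3 to 5.98 in WT DN4 cells. Cd4 and Cd8a reached means of 11.0 and 12.9 in WT DP cells. In IkL/L cells Il2ra fell from 10.40 to 5.17, and Cd4 and Cd8a reached 10.85 and 12.68. These 3 markers went with the stage labels in both genotypes. Cd8b1 was at 9.47 in WT DN4 and at 7.82 in IkL/L DN4 cells. Ptcra fell from 9.40 to 8.41 between DN4 and DP in WT cells but went from 9.79 to 10.04 in IkL/L cells. Whether cells of one stage label were equally mature in both genotypes was not tested. Over the arrays, the myeloid list of markers averaged 4.77 to 6.02, the B cell list 6.14 to 6.48, the erythroid list 4.79 to 5.87, the stromal list 4.63 to 4.98 and the NK and gamma-delta T cell list 5.34 to 7.15. Some of these genes were bright: Ighm of the B cell list had group means from 11.95 to 13.4 and Cd79b reached 8.53, and Gzma of the NK and gamma-delta T cell list stood at 12.3 to 12.8 in the DN3 and DN4 groups. Itgam, Mpo and Cd68 of the myeloid list lay under the median on all arrays, and its highest mean was on IkL/L DN3 replicate 1. In IkL/L DN3 cells Lyz2, S100a8 and Ngp of this list had means of 7.87, 7.15 and 6.82, against 6.84, 5.07 and 5.45 in WT DN3 cells. The part of these cells in the results was not tested. The 3 IkL/L replicate 2 arrays stood apart: 0 of 3 Y-linked genes reached the median there, with means of 3.07 to 3.45, against means of 6.59 to 8.36 on the other 9 arrays. All WT arrays held Y-linked signal, so this signal was not balanced between the genotypes. The part of sex in the genotype differences was not tested. The counts and medians below were also computed without the 3 IkL/L replicate 2 arrays.

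The subunit genes differed little between DN3 and DN4 cells, and 45 (WT) and 40 (IkL/L) of 79 were called lower in DP than in DN4 cells. For each array, the deviation of every gene from its own mean over the 12 arrays was taken, and the median over the 79 tested members was computed. These medians were 0.07 and 0.04 in WT DN3, 0.09 and 0.12 in WT DN4, and -0.38 and -0.40 in WT DP cells. The IkL/L values were 0.18 and 0.09 in DN3, 0.23 and 0.24 in DN4, and -0.09 and -0.15 in DP cells. Within each genotype the DP arrays lay under the DN3 and DN4 arrays, and both WT DP arrays lay under both IkL/L DP arrays. After a second quantile normalization of all arrays the values were 0.16 and 0.16 in WT DN4, -0.22 and -0.32 in WT DP, 0.13 and 0.08 in IkL/L DN4, and -0.09 and -0.11 in IkL/L DP cells, so the order of the DN4 groups turned while that of the DP groups did not.

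**Figure D1:**
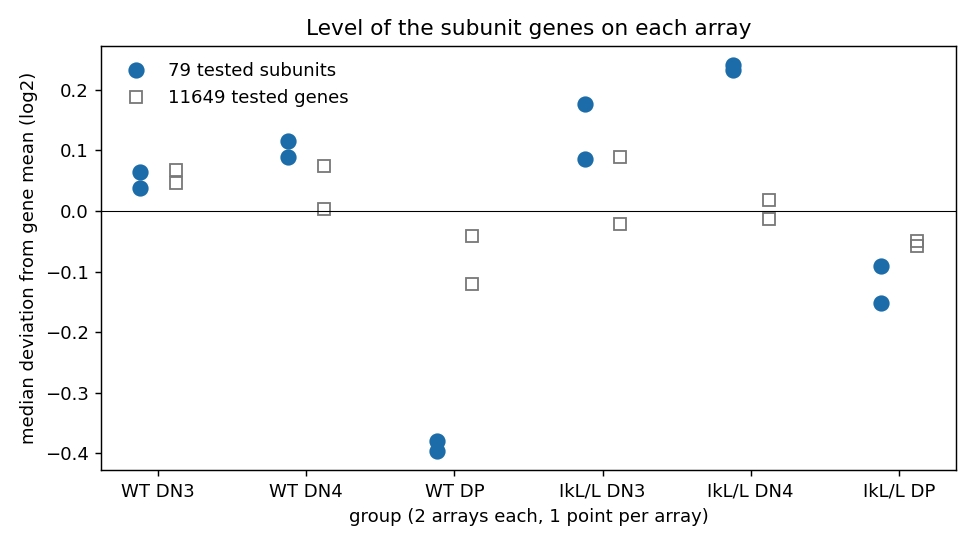
Median deviation from the gene mean (log2) on each of the 12 arrays, for the 79 tested subunit genes (filled circles) and all 11649 tested genes (open squares), by group. The WT DP arrays sit at -0.38 and -0.40 and the IkL/L DN4 arrays at 0.23 and 0.24.

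From DN3 to DN4 few of the subunit genes changed. In WT cells 0 of 79 were called higher, against 1.55% of all 11649 tested genes, and 0 lower, against 7.7% (3.29% and 5.85% of all genes after the second quantile normalization). A gene was called at a limma p under 0.05 after Benjamini-Hochberg adjustment over the tested genes. At an unadjusted p under 0.05 the count was 6, and 49 members had a positive difference (62.0%, against 45.5% of all tested genes). The share of all genes at an unadjusted p under 0.05 was not computed for this or the later contrasts. In IkL/L cells 0 of 79 were called higher (1.2% of all genes) and 1 lower (3.19% of all genes), with 9 at an unadjusted p under 0.05. Differences were positive for 67 members (84.8%, against 49.6% of all tested genes). The median difference of the members was 0.04 in WT and 0.10 in IkL/L cells, against -0.03 and -0.002 over all tested genes. After the second quantile normalization the members' medians were 0.13 in WT cells, with 71 positive, and 0.05 in IkL/L cells, and without the 3 IkL/L replicate 2 arrays the IkL/L median was 0.07.

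The gene called lower in IkL/L DN4 cells was Cox6b2, the testis-enriched isoform of a small complex IV subunit that faces the intermembrane space. Its signal was 7.45 and 7.41 in IkL/L DN3 cells and 6.71 and 6.15 in IkL/L DN4 cells. These arrays did not overlap, and the gene fell by 1.00 ± 0.25 on the log2 scale (SE, limma adjusted p = 0.0471). In WT cells the values were 7.19 and 7.20 at DN3 and 6.03 and 6.74 at DN4, a difference of -0.81 that did not pass. The IkL/L call was lost when any single array of the WT DN3, WT DP, IkL/L DN3 or IkL/L DN4 group was left out (8 arrays, adjusted p up to 0.327).

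The step from DN4 to DP carried most of the changes. In WT cells 45 of 79 members (57.0%) were called lower, against 33.2% of all tested genes, and 4 (5.06%) were called higher, against 23.8%. The median difference of the members was -0.42, that of all tested genes -0.15. On 60 members both WT DP arrays lay under both WT DN4 arrays, and on 7 above, where 46.8% and 30.8% of all genes did so. In IkL/L cells 40 of 79 (50.6%) were called lower, against 26% of all genes, and 2 (2.53%) higher, against 19.5%. Their median difference was -0.35, with -0.04 over all tested genes, but -0.16 after the second quantile normalization and -0.30 without the 3 IkL/L replicate 2 arrays. The NK and gamma-delta T cell list moved along this step, from means of 7.07 and 7.15 on the WT DN4 arrays to 5.49 and 5.34 on the WT DP arrays and from 6.37 and 6.55 to 5.81 and 5.92 in IkL/L cells. Of this list Sox13 and Blk went from 8.39 and 8.64 in WT DN4 to 5.45 and 6.04 in WT DP cells, and the part of such cells in the fall of the members was not tested. The falls of the genotypes had 35 members in common, 77.8% of the WT list and 87.5% of the IkL/L list. The genotypes share no array, but both lists came from the same fit, which gives a gene the same spread in both. The overlap over all tested genes was not computed, so these shares have no background beside them. In bulk RNA, fewer cells of a type and less RNA per cell cannot be told apart. RMA is meant to bring arrays to a common scale, so a change in total RNA per cell was not measured. The deposited signals did not share a single distribution, however. Their upper quartile was smallest at 7.34 (WT DN4, replicate 1) and largest at 7.57 (WT DP, replicate 2).

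The share of members that fell varied between the complexes. Complex II fell in 3 of 4 genes in each genotype and complex III in 5 of 8, and the same genes were called in each. In complex I, 21 of 34 fell in WT and 18 in IkL/L cells, with 16 in common. In complex V, 10 of 17 fell in each genotype, with 8 in common. Complex IV had the smallest shares, 6 of 16 in WT and 4 of 16 in IkL/L cells, with 3 in common. Its tested genes include Cox4i2, Cox6a2, Cox6b2, Cox7a1, Cox8b and Cox8c, isoforms known from other tissues, and Cox4i2, Cox7a1 and Cox8b lay near the array median. Cox4i2, Cox7a1 and Cox6b2 were among the WT falls. Ndufa4 was counted in complex I by its name. Shares without these isoforms were not computed. The shares of complex IV thus depend on which genes the rule took in, and whether its rank does was not tested. The median difference of complex IV was -0.25 in WT and -0.04 in IkL/L cells, and that of complex II was -1.02 and -0.84. The difference between complexes was not tested.

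**Figure D2:**
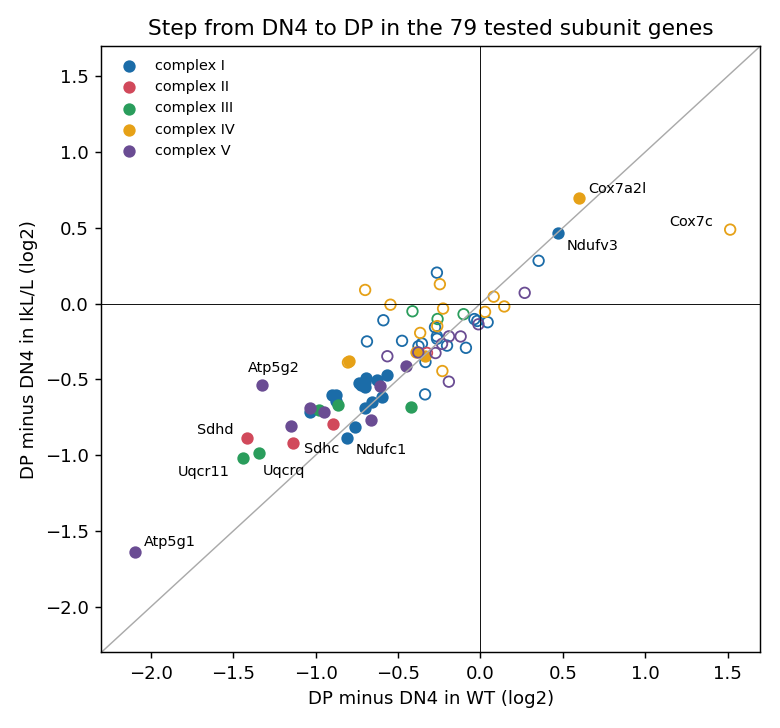
Difference of the DP and DN4 group means (log2) in WT cells (horizontal axis) and IkL/L cells (vertical axis) for the 79 tested subunit genes, coloured by complex. Filled points were called in both genotypes, open points in at most 1 of them, and the grey line marks equal differences. Atp5g1 lies lowest at -2.10 and -1.64, and 67 of the 79 points are negative in both.

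Atp5g1 had the largest fall in both genotypes. It encodes a precursor of subunit c, which forms the rotor ring of the ATP synthase. Its signal was 10.93 and 10.81 in WT DN4 cells and 8.60 and 8.95 in WT DP cells, and it was 10.88 and 10.92 in IkL/L DN4 and 9.32 and 9.21 in IkL/L DP cells. The DN4 and DP arrays lay well apart, and the DN3 arrays, at 10.62 to 11.01, were close to the DN4 arrays. The gene fell by 2.10 ± 0.16 in WT (4.28-fold, adjusted p = 7.06e-07) and by 1.64 ± 0.16 in IkL/L cells (3.11-fold, adjusted p = 7.91e-06).

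Subunit c has 3 genes, which encode the same mature protein behind different import signals. Atp5g2 stood at 11.17 and 11.18 in WT DN4 and at 9.88 and 9.83 in WT DP cells, a fall of 1.32 ± 0.15 (adjusted p = 1.25e-05). In the mutant Atp5g2 was at 11.17 and 10.98 at DN4 and at 10.68 and 10.40 at DP, so that all 4 DP arrays lay under all 4 DN4 arrays but the IkL/L DP arrays lay nearer to them. Atp5g3 was at 13.25 and 13.38 in WT DN4 and 13.03 and 13.13 in WT DP cells, a difference of -0.23 ± 0.12 that did not pass (adjusted p = 0.115). Atp5g3 differed by -0.27 ± 0.12 in IkL/L cells (adjusted p = 0.0917). Whether the fall of Atp5g1 exceeds that of Atp5g3 was not tested, since their probes differ.

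Other parts of complex V fell as well. Atp5e, the epsilon subunit of the central stalk, went from 11.67 and 11.77 to 10.68 and 10.46 in WT and from 11.84 and 11.59 to 11.02 and 10.79 in IkL/L cells. These were falls of 1.15 ± 0.14 (adjusted p = 2.78e-05) and 0.81 ± 0.14 (adjusted p = 0.000566), with no overlap of the arrays. Atp5b, the catalytic beta subunit, fell by 0.66 ± 0.24 in WT and 0.76 ± 0.24 in IkL/L cells (adjusted p = 0.0307 and 0.0192). Its partner in the catalytic head, Atp5a1, differed by -0.01 and -0.14 and did not pass in either genotype.

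In complex II, Sdhc and Sdhd encode the membrane anchor that binds coenzyme Q. Sdhd was at 10.95 and 10.84 in WT DN4, 9.14 and 9.81 in WT DP, 11.06 and 10.71 in IkL/L DN4, and 10.13 and 9.87 in IkL/L DP cells. The groups did not overlap, but the WT DP arrays were far apart. Sdhd fell by 1.42 ± 0.22 in WT (adjusted p = 0.00019) and by 0.88 ± 0.22 in IkL/L cells (adjusted p = 0.00621). The IkL/L call was lost without IkL/L DN4 replicate 1 (adjusted p = 0.0642) or IkL/L DP replicate 2 (adjusted p = 0.0559).

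Sdhc was at 9.12 and 9.25 in WT DN4, 7.66 and 8.43 in WT DP, 9.15 and 9.07 in IkL/L DN4, and 8.35 and 8.04 in IkL/L DP cells. It fell by 1.14 ± 0.22 (adjusted p = 0.000874) and 0.92 ± 0.22 (adjusted p = 0.00472), again with no overlap. Without the 3 IkL/L replicate 2 arrays the IkL/L difference was -0.80 (adjusted p = 0.0698), and its second brightest probe set gave -0.24 (adjusted p = 0.155). Sdhb, the iron-sulfur subunit, fell by 0.89 ± 0.14 and 0.79 ± 0.14 (adjusted p = 0.000147 and 0.000487). Sdha, the flavoprotein that oxidises succinate, differed by -0.32 and -0.33 and did not pass (adjusted p = 0.0629 and 0.0749).

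In complex III, the small subunits Uqcr11 and Uqcrq fell most. Uqcr11 was at 11.91 and 11.79 in WT DN4, 10.49 and 10.33 in WT DP, 11.84 and 11.82 in IkL/L DN4, and 10.96 and 10.66 in IkL/L DP cells. Every DP array lay under every DN4 array. The falls were 1.44 ± 0.14 (2.72-fold, adjusted p = 3.39e-06) and 1.02 ± 0.14 (2.03-fold, adjusted p = 7.58e-05). Uqcrq, a small subunit beside cytochrome b, went from 11.61 and 11.52 to 10.29 and 10.15 in WT and from 11.48 and 11.34 to 10.47 and 10.38 in IkL/L cells. The falls of Uqcrq were 1.34 ± 0.12 (adjusted p = 3e-06) and 0.99 ± 0.12 (adjusted p = 5.17e-05). The Rieske iron-sulfur protein Uqcrfs1, which hands electrons to cytochrome c1, fell by 0.42 ± 0.13 and 0.68 ± 0.13 (adjusted p = 0.0155 and 0.00103).

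In complex I, the accessory subunit Ndufb1 was at 6.97 and 6.92 in WT DN4 and at 5.96 and 5.86 in WT DP cells, and fell by 1.04 ± 0.13 (adjusted p = 4.15e-05). Ndufc1, another accessory subunit of the membrane arm, went from 12.52 and 12.49 to 11.65 and 11.59 in IkL/L cells, a fall of 0.89 ± 0.13 (adjusted p = 0.000157). Ndufa4 went from 10.93 and 10.84 to 10.09 and 10.05 in IkL/L cells, a fall of 0.81 ± 0.14 (adjusted p = 0.000617). Ndufa4 carries a complex I name but its protein is now placed with complex IV. On these 3 genes the DN4 and DP arrays did not overlap. Ndufv1, the flavin-binding subunit that oxidises NADH, fell by 0.66 ± 0.13 in WT and 0.65 ± 0.13 in IkL/L cells (adjusted p = 0.00111 and 0.00158).

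A few members went the other way. Cox7a2l, a protein of the Cox7a family known for joining complexes III and IV in supercomplexes, was at 12.25 and 12.37 in WT DN4 and 12.85 and 12.97 in WT DP cells. Its IkL/L values were 12.44 and 12.44 at DN4 and 13.15 and 13.12 at DP. Every DP array lay above every DN3 and DN4 array. Cox7a2l rose by 0.60 ± 0.12 in WT (adjusted p = 0.000977) and 0.70 ± 0.12 in IkL/L cells (adjusted p = 0.000438), and its second brightest probe set rose by 0.50 and 0.64 (adjusted p = 0.00374 and 0.00147). The broadly expressed subunit of the family, Cox7a2, fell by 0.34 ± 0.13 and 0.35 ± 0.13 (adjusted p = 0.0437 and 0.0481).

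Ndufv3, a subunit at the tip of the NADH-oxidising arm of complex I, was at 10.93 and 11.16 in WT DN4, 11.50 and 11.52 in WT DP, 11.01 and 11.10 in IkL/L DN4, and 11.57 and 11.46 in IkL/L DP cells. It rose by 0.47 ± 0.13 (adjusted p = 0.00857) and 0.46 ± 0.13 (adjusted p = 0.0114). The WT call was lost without WT DN4 replicate 1 (adjusted p = 0.0809) and with the actin 3' to 5' difference as a covariate (adjusted p = 0.073), and the IkL/L call without IkL/L DN4 replicate 1 (adjusted p = 0.076) or IkL/L DP replicate 1 (adjusted p = 0.0775). Ndufa13, an accessory complex I subunit also known as GRIM-19, was at 12.50 and 12.78 in WT DN4 and 13.00 and 13.00 in WT DP cells. It rose by 0.35 ± 0.12 in WT (adjusted p = 0.0286), a call lost without any of WT DN4 replicate 1, WT DP replicate 1 and WT DP replicate 2 (adjusted p up to 0.229) and with the actin covariate (adjusted p = 0.119).

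Cox7c, a small membrane subunit of complex IV, was at 8.01 and 7.59 in WT DN4 and 9.58 and 9.06 in WT DP cells, and rose by 1.52 ± 0.30 (2.86-fold, adjusted p = 0.00107). Its IkL/L values were 8.24 and 8.58 at DN4 and 8.99 and 8.80 at DP, a difference of 0.49 ± 0.30 that did not pass (adjusted p = 0.22). Its WT DN3 arrays were at 8.95 and 8.04, so the spread of this probe set within a group reached 0.64 (SD). Its other probe set gave 0.98 in WT (adjusted p = 0.0301) and -0.09 in IkL/L cells. Cox4i1, a subunit that the early assembly of complex IV needs, differed by 0.03 and -0.05 between DN4 and DP cells, with neither difference passing.

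**Figure D3:**
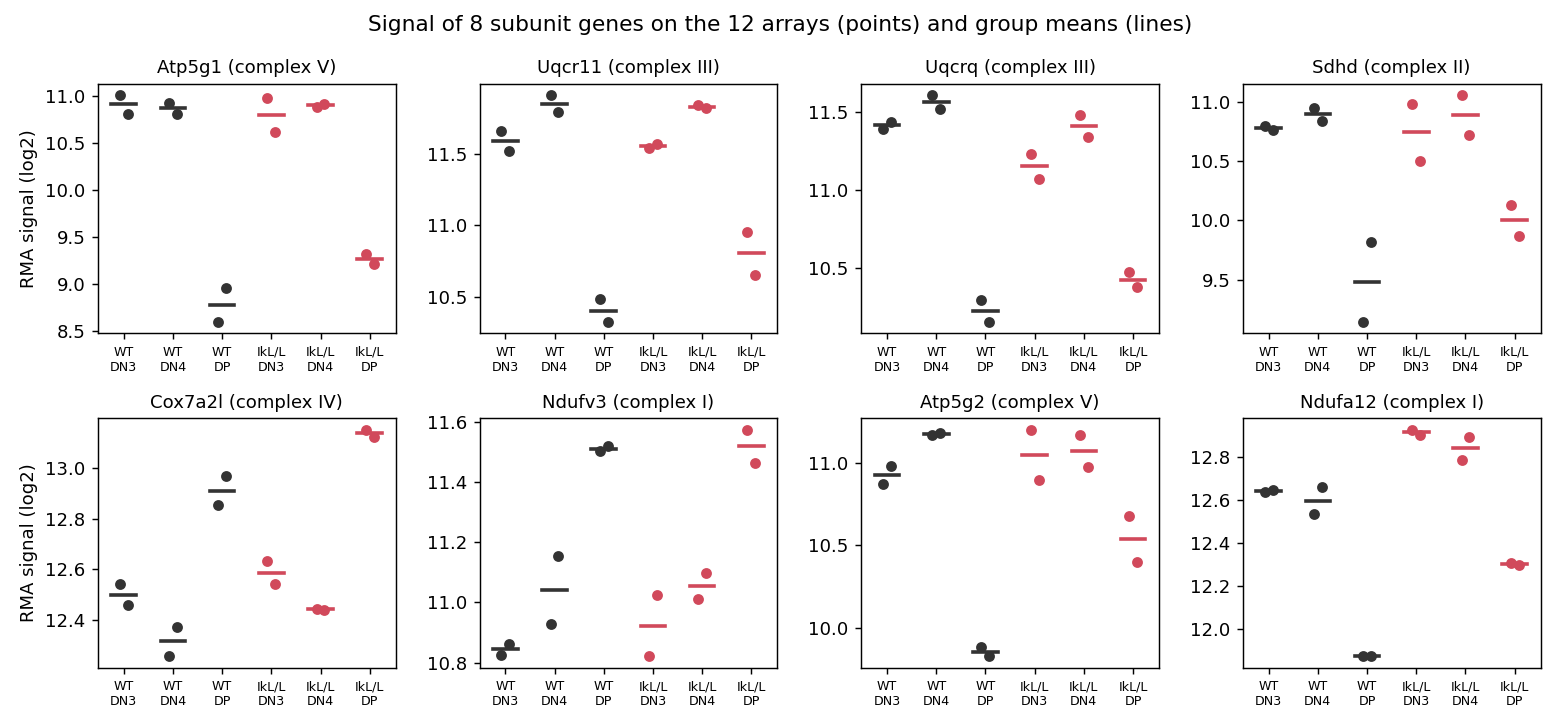
Deposited RMA signal (log2) of 8 subunit genes on each of the 12 arrays (points) with the group means (lines), WT in grey and IkL/L in red, each panel with its own axis. In the first 4 panels, Atp5g1, Uqcr11, Uqcrq and Sdhd, all DP arrays lie under all DN4 arrays, and Cox7a2l and Ndufv3 lie higher at DP.

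Of the 12 members named for the WT step, 10 kept their call without each single array and Ndufv3 and Ndufa13 did not. Of the 10 named for the IkL/L step, 8 kept it and Ndufv3 and Sdhd did not. The count of IkL/L falls was 25 without IkL/L DN4 replicate 1, 26 without IkL/L DP replicate 2, 17 without the 3 IkL/L replicate 2 arrays and 25 after the second quantile normalization. The signal of the actin control at its 3' end minus that at its 5' end, a sign of RNA length, was 1.74 and 1.93 in WT DN4 and 2.86 and 2.29 in WT DP cells, and 1.93 and 2.39 in IkL/L DN4 and 2.26 and 2.64 in IkL/L DP cells. With this difference as a covariate, 36 members fell and 2 rose in WT and 41 fell and 2 rose in IkL/L cells.

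Promoters are shown for 4 members of the DN4 to DP step: 3 that fell far in both genotypes and Cox7a2l, which rose in both. The sequences are RefSeq's for build GRCm38.p6, from 250 bases before to 50 bases after the transcript start, read 5′ to 3′ on the strand of the gene. They lie at chr11:96075582-96075881 (minus strand) for Atp5g1, at chr10:80406772-80407071 (minus) for Uqcr11, at chr9:50603800-50604099 (minus) for Sdhd and at chr17:83514284-83514583 (minus) for Cox7a2l. Capitals mark matches, on either strand, to the letters of 6 motifs, none of which holds another: GCGCANGCG for NRF1, CCGGAAG for ETS factors such as GABP, AAGATGGC for YY1, GGGCGG for Sp1, TGGGAA for Ikaros and CACGTG for the E-box of Myc and its relatives.
Atp5g1: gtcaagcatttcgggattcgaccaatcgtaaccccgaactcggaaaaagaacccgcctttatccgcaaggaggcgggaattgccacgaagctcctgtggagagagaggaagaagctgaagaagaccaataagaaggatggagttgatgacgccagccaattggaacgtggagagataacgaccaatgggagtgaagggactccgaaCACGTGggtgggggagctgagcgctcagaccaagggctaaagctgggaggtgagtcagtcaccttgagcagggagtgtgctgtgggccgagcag
Uqcr11: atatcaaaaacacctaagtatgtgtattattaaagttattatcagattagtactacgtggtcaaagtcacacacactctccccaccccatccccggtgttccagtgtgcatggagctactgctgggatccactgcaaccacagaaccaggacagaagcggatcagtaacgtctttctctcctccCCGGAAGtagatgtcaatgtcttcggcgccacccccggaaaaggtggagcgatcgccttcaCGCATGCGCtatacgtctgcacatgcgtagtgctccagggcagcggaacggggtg
Sdhd: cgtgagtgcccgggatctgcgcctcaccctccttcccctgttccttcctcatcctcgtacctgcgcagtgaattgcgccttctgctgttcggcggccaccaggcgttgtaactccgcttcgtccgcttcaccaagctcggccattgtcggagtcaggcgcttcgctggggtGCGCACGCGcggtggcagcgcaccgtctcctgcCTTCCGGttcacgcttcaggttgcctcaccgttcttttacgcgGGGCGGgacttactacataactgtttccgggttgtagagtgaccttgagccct
Cox7a2l: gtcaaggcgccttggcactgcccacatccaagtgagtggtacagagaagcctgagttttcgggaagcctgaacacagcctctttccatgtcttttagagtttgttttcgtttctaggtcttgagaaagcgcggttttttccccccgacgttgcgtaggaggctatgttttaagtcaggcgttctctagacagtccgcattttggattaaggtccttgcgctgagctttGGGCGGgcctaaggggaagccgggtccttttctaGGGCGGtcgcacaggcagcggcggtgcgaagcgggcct

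The Atp5g1 window held 1 E-box. That of Uqcr11 held 1 NRF1 and 1 ETS match, that of Sdhd 1 NRF1, 1 ETS and 1 Sp1 match, and that of Cox7a2l 2 Sp1 matches. Of the 81 members, 66 had a promoter in the table, with 71 promoters in all. NRF1 letters stood in 26.8% of these and in 6.25% of all 32851 promoters, ETS letters in 23.9% against 8.86%, and YY1 letters in 12.7% against 2.75%. Sp1 letters stood in 40.8% against 35.7%, E-box letters in 9.86% against 7.15%, and Ikaros letters in 19.7% against 25.6%. Among the 37 promoters of genes that fell in both genotypes, 27.0% held NRF1 letters and 24.3% ETS letters, and among the 22 of genes that fell in neither, 22.7% and 31.8%. Ikaros letters stood in 27.0% of the first set and 13.6% of the second, E-box letters in 13.5% and 4.55%, Sp1 letters in 40.5% and 36.4% and YY1 letters in 10.8% and 13.6%. The number of promoters in each set is small, and these shares were not tested. A match is a description of these letters and not a bound site.

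The median genotype difference of the members, IkL/L minus WT, was 0.08 in DN3, 0.17 in DN4 and 0.23 in DP cells, but that in DN4 cells was -0.05 after the second quantile normalization. Few single genes passed the test at any stage. These contrasts use the same arrays as the steps above. In DN3 cells 0 of 79 members were called higher (2.08% of all genes) and 0 lower (2.21% of all genes), with 4 at an unadjusted p under 0.05. Of the members 53 were positive (67.1%, against 43.3% of all genes). Their median difference of 0.08 stood against -0.04 over all genes. It was 0.05 without IkL/L DN3 replicate 1, 0.13 without IkL/L DN3 replicate 2 (the same value as with all the IkL/L replicate 2 arrays left out), and 0.04 with arrays centred on their median. The 3 highest differences were Ndufa5 (0.46), Ndufa2 (0.30) and Cox8c (0.29), and the 3 lowest were Cox7a1 (-0.46), Cox7c (-0.31) and Uqcrq (-0.26). None of these passed, and the difference of Cox7c turned positive when replicate 1 of either group was left out, at 0.14 (WT) and 0.02 (IkL/L).

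In DN4 cells 1 of 79 members was called higher (4.4% of all genes) and 0 lower (2.48% of all genes), with 14 at an unadjusted p under 0.05. The median was 0.17, against -0.002 over all genes, and 61 members were positive (77.2%, against 49.7% of all genes). Among brighter genes alone, with a filter at the 75th percentile, the median was 0.18 over 72 members and 0.08 over all 7597 genes. After the second quantile normalization the median of all genes moved to -0.11, 2 members were called lower and 0 higher, and 3.12% of all genes were called higher and 6.04% lower. The called gene was Atp5pb, the b subunit of the ATP synthase stator. It was at 12.75 and 12.54 in WT DN4 and at 13.28 and 13.18 in IkL/L DN4 cells. The arrays did not overlap, and the rise was 0.59 ± 0.15 (1.50-fold, adjusted p = 0.043). The call was lost when any single array of the WT DN3, WT DN4, IkL/L DN4 or IkL/L DP group was left out (8 arrays, adjusted p up to 0.253), and the second brightest probe set gave 0.58 (adjusted p = 0.427). The highest and lowest differences besides were Cox7c (0.61) and Ndufa5 (0.38), and Ndufa4l2 (-0.39), Cox4i2 (-0.33) and Ndufb1 (-0.31), and none of these passed.

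In DP cells 2 of 79 members were called higher (4.36% of all genes) and 0 lower (1.62% of all genes), with 23 at an unadjusted p under 0.05. The share of all genes at that unadjusted p was not computed. Differences were positive for 74 members (93.7%, against 54.4% of all genes). The median was 0.23, against 0.03 over all genes, and it was 0.16 after the second quantile normalization and 0.26 without the 3 IkL/L replicate 2 arrays. On 58 members both IkL/L DP arrays lay above both WT DP arrays, on 1 below, and on 20 they overlapped. Over all tested genes 26% lay above and 18% below. The medians of the complexes were close: 0.24 for complex I, 0.19 for complex II, 0.26 for complex III, 0.20 for complex IV and 0.26 for complex V.

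The called genes in DP cells were Atp5g2 and Ndufa12. Atp5g2 was at 9.88 and 9.83 in WT DP and at 10.68 and 10.40 in IkL/L DP cells, with no overlap, and was higher by 0.68 ± 0.15 (1.61-fold, adjusted p = 0.016). The call was lost without WT DP replicate 1, WT DP replicate 2 or IkL/L DP replicate 1 (adjusted p up to 0.155), and with the mean of its probe sets the difference was 0.20 (adjusted p = 0.358). Ndufa12, an accessory subunit of the matrix arm of complex I, was at 11.88 and 11.87 in WT DP and at 12.31 and 12.30 in IkL/L DP cells. It was higher by 0.43 ± 0.11 (1.35-fold, adjusted p = 0.049), and this call was lost without any single array other than IkL/L DN3 replicate 1 (11 arrays, adjusted p up to 0.2) and with the replicate block (adjusted p = 0.0593). Cox6b2 (0.84, adjusted p = 0.0833) and Ndufa6 (0.69, adjusted p = 0.0661) did not pass, but Ndufa6 did with the replicate block (adjusted p = 0.00658) and with a trend and robust prior (adjusted p = 0.0445). The 3 lowest differences, of Cox7c (-0.42), Ndufs1 (-0.18) and Cox6a2 (-0.10), did not pass either, and that of Cox6a2 turned to 0.09 without WT DP replicate 1.

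**Figure D4:**
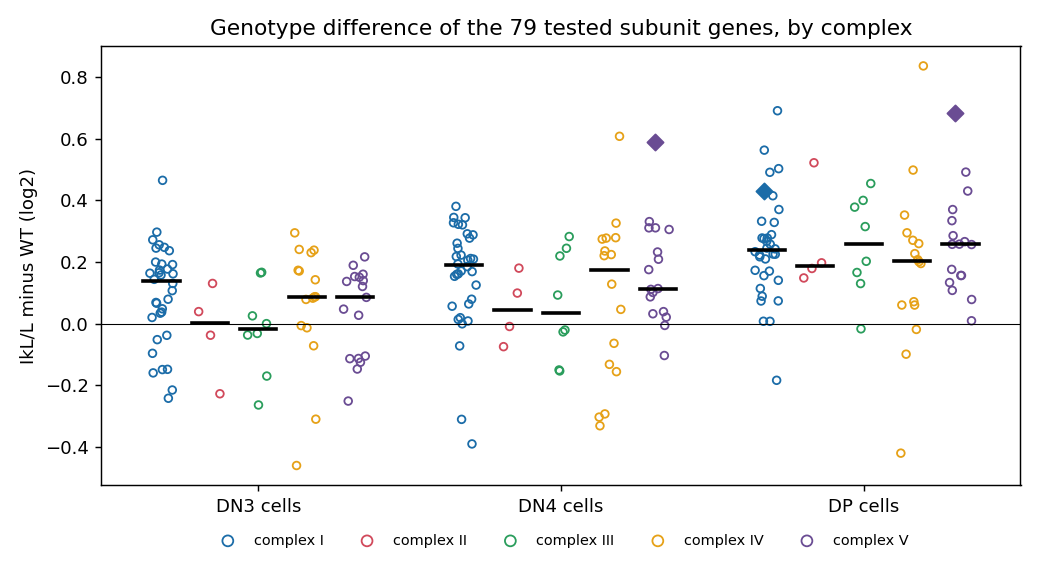
Difference of the IkL/L and WT group means (log2) in DN3, DN4 and DP cells for the 79 tested subunit genes, by complex. Open circles are genes that were not called, filled diamonds are called genes, and black bars are the medians of a complex. The called genes are Atp5pb in DN4 cells at 0.59 and Atp5g2 and Ndufa12 in DP cells at 0.68 and 0.43.

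Averaged over the 3 stages, 15 of 79 members (19.0%) were called higher in IkL/L cells, against 9.01% of all genes, and 0 lower, against 6.49%. The 15 were 8 of complex I (Ndufa2, Ndufa4, Ndufa5, Ndufa12, Ndufb8, Ndufb9, Ndufc2 and Ndufv2), 2 of complex III (Uqcrb and Uqcrc2), 2 of complex IV (Cox6a1 and Cox6c) and 3 of complex V (Atp5c1, Atp5j2 and Atp5pb). The median difference of the members was 0.15 and that of all genes -0.01. Without the 3 IkL/L replicate 2 arrays, which leaves 1 array in each IkL/L group, these medians were 0.18 and 0.02. The count was 1 after the second quantile normalization, where the medians were 0.04 and -0.05. There 7.15% of all genes were called higher and 9.32% lower. Leaving out single arrays gave 2 to 16, with 2 without WT DN3 replicate 2, 4 without IkL/L DN4 replicate 2 or IkL/L DP replicate 1, 5 without IkL/L DN4 replicate 1, 6 without WT DN4 replicate 1 or IkL/L DP replicate 2, and 7 without WT DN3 replicate 1 or WT DN4 replicate 2.

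Ndufa5, an accessory subunit of the matrix arm of complex I, had the largest difference, 0.47 ± 0.10 (1.38-fold, adjusted p = 0.00871). It was at 11.71 and 11.33 in WT DN3, 11.80 and 11.31 in WT DN4 and 10.97 and 10.74 in WT DP cells, and at 12.02 and 11.96, 11.93 and 11.94, and 11.43 and 11.41 in the IkL/L groups in the same order. At every stage both IkL/L arrays lay above both WT arrays. Ndufa12 had the lowest adjusted p of the members, with a difference of 0.31 ± 0.07 (adjusted p = 0.00738). It was at 12.64 and 12.65 in WT DN3 and 12.93 and 12.90 in IkL/L DN3 cells, and at 12.53 and 12.66 in WT DN4 and 12.79 and 12.89 in IkL/L DN4 cells. These calls held without each single array, with adjusted p of at most 0.0326 for Ndufa5 and 0.03 for Ndufa12. Both calls were lost in the fit without the 3 IkL/L replicate 2 arrays, where the differences were 0.48 for Ndufa5 and 0.30 for Ndufa12. The call of Ndufa12 was also lost after the second quantile normalization, where its difference was 0.17. The second brightest probe set of Ndufa5 gave 0.35 (adjusted p = 0.106).

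The other 6 named genes of the averaged contrast all lost their call without WT DN3 replicate 2. Cox6c, a membrane subunit of complex IV, was higher by 0.35 ± 0.10, and Ndufa2 of the complex I matrix arm by 0.35 ± 0.09. At DN3 the arrays of Atp5pb and Ndufb9 overlapped between the genotypes. Atp5pb was higher by 0.34 ± 0.09, and Ndufv2, the iron-sulfur partner of Ndufv1, by 0.31 ± 0.08. Ndufb9 and Ndufa4 were higher by 0.30 ± 0.08 and 0.28 ± 0.08, and the adjusted p of these 6 lay between 0.0172 and 0.0415. Ndufv2 was lost without that array alone (adjusted p = 0.0559), and the other 5 without 4 to 11 of the 12 arrays. For 13 of the 15 called genes a second probe set existed, and 12 of these had the same sign.

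No member passed the test of a genotype difference between stages. For the step from DN3 to DN4, 0 of 79 were called in either direction (0.0258% of all genes higher and 0.0258% lower), with 2 at an unadjusted p under 0.05. For the step from DN4 to DP, 0 were called (0.661% of all genes higher and 0.326% lower, or 1.09% and 0.292% after the second quantile normalization), with 7 at an unadjusted p under 0.05. For DP against DN3 cells, a contrast added after the data were seen, 0 were called (1.38% higher and 0.352% lower), with 8 at an unadjusted p under 0.05. Atp5g2 came nearest: its fall from DN4 to DP was smaller in IkL/L cells by 0.79 ± 0.21 (adjusted p = 0.112). For Cox7c the step differed by -1.03 ± 0.43 (adjusted p = 0.295), and for Uqcr11 by 0.42 ± 0.19 (adjusted p = 0.33). These tests had few arrays, and a p that misses the threshold does not show equal steps.

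Of the isoforms known from other tissues, Cox6a2, Cox6b2, Cox8c and Ndufa4l2 lay at or above the array median on all 12 arrays, and Cox4i2, Cox7a1 and Cox8b on 10, 3 and 4. Cox4i2, an isoform of lung and oxygen-sensing cells, lay between 4.97 and 5.64 on the 12 arrays, and Ndufa4l2, a hypoxia-induced relative of Ndufa4, between 5.19 and 6.08. The muscle isoforms Cox6a2, Cox7a1 and Cox8b lay at 6.27 to 6.75, 4.37 to 5.31 and 4.88 to 5.39, and the testis isoform Cox8c at 7.24 to 7.64. Values near the array median of 5.14 to 5.22 may be mostly background, so that a difference there is a difference of signals. In the WT step from DN4 to DP, Cox7a1, Cox4i2 and Ndufa4l2 were called lower, as was Cox6b2, which went to 5.74 and 5.63 in WT DP cells and stood at 6.84 and 6.20 in IkL/L DP cells.

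Genes that serve the same enzymes also fell from DN4 to DP. Partners outside the rule included carriers, cytochrome c proteins, feeders of coenzyme Q and subunits whose names the rule leaves out. Of 17 tested partners, 10 fell in WT and 12 in IkL/L cells and 0 rose. They included Ndufab1, the acyl carrier protein of complex I (-1.49 ± 0.11 in WT and -1.20 ± 0.11 in IkL/L cells), and Dhodh, which feeds electrons from pyrimidine synthesis into coenzyme Q (-1.45 ± 0.15 and -1.19 ± 0.15). Of 42 assembly factors 28 fell and 1 rose in WT, and 23 fell and 3 rose in IkL/L cells. The largest falls were of Ndufaf6, a complex I assembly factor (-3.38 ± 0.15 and -2.72 ± 0.15), and Uqcc2, a complex III assembly factor, fell by 2.21 ± 0.14 and 1.82 ± 0.14. Of 12 coenzyme Q synthesis genes 8 fell in WT and 7 in IkL/L cells and 1 rose in each, with Coq2 at -1.92 ± 0.13 and -1.84 ± 0.13.

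The citric acid cycle and the mitochondrial ribosome, which makes the mitochondrially encoded subunits, showed the same direction. Of 18 citric acid cycle genes 11 fell in WT and 10 in IkL/L cells, among them Suclg2 of succinyl-CoA ligase (-2.61 ± 0.19 and -2.41 ± 0.19) and fumarase, Fh1 (-1.34 ± 0.13 and -1.33 ± 0.13). Of 76 mitochondrial ribosome genes 65 fell in WT and 61 in IkL/L cells and 0 rose, with medians of -0.97 and -0.74. Mrpl17 had -2.31 ± 0.17 and -1.79 ± 0.17. These shares can be read beside the 33.2% and 26% of all genes that fell. The lists were chosen with earlier results of these data known.

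Of 18 regulators of mitochondrial genes 6 fell in each genotype, while 4 rose in WT and 2 in IkL/L cells, where 33.2% and 26% of all genes fell and 23.8% and 19.5% rose. Myc, a growth regulator that acts on nuclear genes of mitochondria, fell by 4.06 ± 0.23 in WT and by 3.20 ± 0.23 in IkL/L cells (adjusted p = 9.2e-08 and 7.99e-07). Pprc1, a coactivator of the PGC-1 family, fell by 1.73 ± 0.22 and 1.52 ± 0.22, and Polg, the mitochondrial DNA polymerase, rose by 1.32 ± 0.16 and 0.85 ± 0.16. In DP cells Myc was higher in IkL/L than in WT cells by 1.18 ± 0.23 (adjusted p = 0.00871), and its genotype difference was larger in DP than in DN3 cells by 1.53 ± 0.33 (adjusted p = 0.0375). Also higher in IkL/L DP cells were Coq7 of coenzyme Q synthesis (0.86 ± 0.15, adjusted p = 0.00532) and Ndufab1 (0.45 ± 0.11, adjusted p = 0.0368). So were 6 of 76 mitochondrial ribosome genes, led by Mrpl52 (0.94 ± 0.15, adjusted p = 0.00286), where 4.36% of all tested genes were called higher. Whether any of these genes bears on the subunits was not tested.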

How the data were processed

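RNA of sorted thymocytes was measured on 12 Affymetrix arrays, 2 in each of 6 groups, after a labelling protocol with 2 rounds of amplification per the labels' protocols. The authors deposited a log2 signal for each probe set on each array, made with RMA per the submitters' processing notes. Its version, and whether 1 run held all arrays, are not given in the sources used here. Signals have no read depth, so precision rests on how many arrays there are.

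Of 45099 probe sets, 34958 carry a single gene symbol, which were used, 932 carry several and 9209 carry none. Of 164 such probe sets of the members the brightest per gene was kept, and 9 probe sets that name a member with another gene were left out. Genes at or above their array's median on at least 2 arrays were tested: 11649 of 18194. limma 3.58.1 in R 4.3.3 fitted 1 mean per group over all 12 arrays, with 6 residual and 5.67 prior degrees of freedom. Every p of a gene in the text is limma's, every adjusted p is Benjamini-Hochberg over the tested genes of a contrast, and ± gives the SE. The scripts were tested on simulated data.

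The members and lists were chosen with earlier results of these data known. Named were called members with non-overlapping arrays (not applied to the averaged contrast, where Atp5pb and Ndufb9 overlapped at DN3): up to 12 rises and 12 falls for a genotype contrast within a stage, 8 and 8 for a step or the averaged contrast and 6 and 6 for a genotype difference between stages. The 3 highest and 3 lowest differences were named where under 6 members were called, as were the tissue-restricted isoforms and up to 4 called genes of a pathway list. Atp5a1, Atp5b, Atp5g3, Cox4i1, Cox7a2, Ndufv1, Sdha, Sdhb and Uqcrfs1 were chosen after their values were seen. Alternatives were other normalizations, filters, probe set rules, priors and array weights, an actin covariate, the replicate number as a block, the arrays of a contrast alone, and leaving out arrays. Replicate numbers were not used as pairs: over 15 pairs of groups the correlation of same-numbered deviations ran from -0.34 to 0.49. The labels do not say what a number marks, but Y-linked signal was low on the 3 IkL/L replicate 2 arrays and not on the 3 IkL/L replicate 1 arrays.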

Additional observations from a re-analysis of the deposited data

How the results depend on the processing

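The falls from DN4 to DP in WT cells stayed within 1.5 times of 45 under all alternatives run (35 to 45 without single arrays). The rises in this step were 2 with the actin covariate and 2 to 4 without single arrays. In IkL/L cells the falls were 25 after a second quantile normalization, 17 without the 3 IkL/L replicate 2 arrays and 25 to 43 without single arrays, and the rises were 1 without those 3 arrays and 1 to 2 without single arrays. The genotype counts moved more. A fit without the 3 IkL/L replicate 2 arrays has 1 array in each IkL/L group and fewer residual degrees of freedom. The members' median averaged over stages was 0.18 in that fit and 0.15 in the main fit. Averaged over stages, 15 rises became 1 after the second quantile normalization, 9 with arrays centred on their median or with the mean of the probe sets (and then 1 fall), 25 with a trend and robust prior, 3 without the 3 IkL/L replicate 2 arrays and 2 to 16 without single arrays. In DP cells 2 rises became 1 with centred arrays, the mean of the probe sets or array weights, 6 with the trend and robust prior, 0 with the arrays of the contrast alone, and 0 to 2 without single arrays. In DN4 cells 1 rise became 0 after the second normalization, with centred arrays, with the mean of the probe sets and without the 3 IkL/L replicate 2 arrays, 2 with the trend and robust prior or the arrays of the contrast alone, and 0 to 1 without single arrays. The second normalization also gave 2 falls there and turned the members' median difference from 0.17 to -0.0466. It turned the median of the genotype difference in the DN3 to DN4 step from 0.10 to -0.0739, that of all genes from 0.09 to -0.06, and gave 1 rise for the DN4 to DP step. The cause was not tested.

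From DN3 to DN4 in WT cells, 2 rises were called after the second normalization and with array weights, 1 with the arrays of the contrast alone, and 1 fall with array weights, the actin covariate, the arrays of the contrast alone or without the 3 IkL/L replicate 2 arrays (0 to 1 without single arrays). In IkL/L cells the fall of Cox6b2 was lost (0 called) with centred arrays, no brightness filter, array weights or the arrays of the contrast alone. It was also lost without the 3 IkL/L replicate 2 arrays. With the actin covariate 1 rise was called, and both counts were 0 to 1 without single arrays. With a filter at the 75th percentile 72 members were tested. Cox6b2 lay under the upper quartile on all arrays and was not among them, so 0 falls were called there.

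With the replicate number as a replicate block the counts were 47 falls and 4 rises (WT) and 39 falls and 2 rises (IkL/L) from DN4 to DP, 18 rises averaged over stages, 3 in DP and 1 in DN4 cells, and 0 falls from DN3 to DN4 in IkL/L cells. Same-numbered samples correlated over 0.1 in 4 of 15 pairs of groups and under -0.1 in 3, so the numbers were not taken as pairs over all groups. Within IkL/L the numbers went with Y-linked signal at all 3 stages. The 2 arrays a group limit what could be called.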
